A study of Mus musculus with 6 samples.

Results

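A set of 6 genes of the myeloid growth factor system was followed through the spinal cord: the ligands *Csf1* and *Il34* and the receptors *Csf1r*, *Csf3r*, *Flt3* and *Kit*. They were chosen by name, and all 6 are among the 19449 genes of the single-cell table and the 55351 genes of the bulk table. M-CSF, the product of *Csf1*, and IL-34 are both ligands of the receptor encoded by *Csf1r*, on which microglia and many macrophages depend for survival. *Csf3r* encodes the receptor for G-CSF, the main growth factor of neutrophils. *Flt3* encodes the receptor for FLT3 ligand, which drives dendritic cell development, and *Kit* the receptor for stem cell factor, known on hematopoietic progenitors, mast cells and some innate lymphoid cells.

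CD45+ cells were sorted from spinal cords of C57BL/6 recipients after they received MOG-reactive CD4+ T cells that had been polarized with IL-23, an adoptive transfer model of experimental autoimmune encephalomyelitis (EAE). Recipients were young (8 to 12 weeks) or middle-aged (40 to 44 weeks) and were taken on day 6 or day 10, with 1 library per age and day made from 4 pooled cords. The 4 libraries held 8315 to 10026 cells, 38057 in all, with a median of 4704.5 to 6196 unique molecular identifiers (UMIs, tags that mark 1 captured transcript each) per cell. A further 2 bulk libraries, 1 per age, came from microglia of untreated, naive mice, with 79373420 counts in young and 76293436 in middle-aged. The study asked how recipient age alters the response in the central nervous system. All single-cell groups received T cells, so no untreated control exists in the single-cell data, and pooled cords give no value per mouse. Of the cells, 308 carried 1 of 154 barcodes that occur in more than 1 library.

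Levels are UMIs of a gene per 1000000 UMIs of all genes (CPM), summed over the cells of a deposited cluster in a library. Values of the 4 libraries are given in the order young day 6, middle-aged day 6, young day 10, middle-aged day 10. Intervals are 95% intervals (exact Poisson for CPM, exact binomial for shares, exact conditional binomial for log2 ratios) and cover counting error only. The deposited clusters carry numbers without cell types. By marker genes, clusters 0, 3 and 6 were neutrophil-like, 1 and 5 monocyte/macrophage-like, 2 T cell-like, 4 B cell-like, 7 dendritic cell-like, 8 and 10 microglia-like and 9 NK cell-like, and 11 to 15 were left unnamed. Cluster 0 needs a caveat, because none of its 10 leading genes is a neutrophil marker, and of the 8 neutrophil markers it took place 2 of 16 clusters for *Cxcr2* and *Hdc*, place 3 for *Mmp9*, place 5 for *Retnlg* and *Mmp8* and place 6 for *S100a8*, *S100a9* and *Ly6g*. Its *Ly6g* level was 26.4 CPM, against 259 in cluster 3 and 707 in cluster 6. The clusters were made from these same cells and genes, so levels across clusters are a description without a test.

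Promoter stretches of 4 members are shown to set the genes highest in neutrophil-like cells (*Csf1*, *Csf3r*) beside those highest in dendritic cell-like cells (*Flt3*, *Kit*). RefSeq sequences before the transcription start (GRCm38.p6) were matched for these 4 of the 6 members. *Csf1r* and *Il34* had no entry in the table. The stretches lie at chr3:107760470-107760719 (minus strand) for *Csf1*, chr4:126024409-126024549 (plus) for *Csf3r*, chr5:147400490-147400739 (minus) for *Flt3* and chr5:75574737-75574915 (plus) for *Kit*, each ending just before the GENCODE vM21 gene. Capitals mark the letters GAGGAAG, a core bound by the myeloid factor PU.1 and other ETS factors.
Csf1: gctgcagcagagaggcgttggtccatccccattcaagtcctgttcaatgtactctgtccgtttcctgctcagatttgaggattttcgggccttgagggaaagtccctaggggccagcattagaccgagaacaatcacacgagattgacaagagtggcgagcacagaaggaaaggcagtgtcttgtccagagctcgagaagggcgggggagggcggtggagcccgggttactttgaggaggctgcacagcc
Csf3r: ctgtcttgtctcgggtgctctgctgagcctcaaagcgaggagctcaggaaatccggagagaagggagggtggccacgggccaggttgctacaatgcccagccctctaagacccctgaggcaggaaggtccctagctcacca
Flt3: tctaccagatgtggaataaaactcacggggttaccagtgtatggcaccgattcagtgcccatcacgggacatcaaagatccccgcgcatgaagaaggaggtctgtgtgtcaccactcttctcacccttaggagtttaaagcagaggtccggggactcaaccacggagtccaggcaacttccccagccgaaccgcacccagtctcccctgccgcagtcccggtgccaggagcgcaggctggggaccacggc
Kit: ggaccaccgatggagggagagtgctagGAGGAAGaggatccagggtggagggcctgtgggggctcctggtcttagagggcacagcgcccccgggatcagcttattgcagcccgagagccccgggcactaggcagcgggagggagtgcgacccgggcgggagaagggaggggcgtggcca
On both strands of the full 250 bases before the RefSeq start, GAGGAAG occurred once in *Kit*, 223 bases before that start, and once in *Csf3r*, 86 bases before it and past the printed stretch. It was not found in the windows of *Csf1* and *Flt3*, and it occurred in 10.4% of the 27025 promoters searched. The letters TTGCNNAA (a C/EBP-type site, in 9.55% of promoters) and CACGTG (an E-box, in 6.05%) were found in none of the 4 windows. Such matches describe letters and show no binding.

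*Csf1*, the ligand, was highest in neutrophil-like cluster 0. Its CPM there was 1237, 1452, 663 and 808 in the 4 libraries, and this cluster held 63.8% of all 44589 *Csf1* UMIs. Every value of day 6 exceeded every value of day 10. Among its cells with 2000 or more UMIs, each thinned to 2000, 69.5%, 74.4%, 50.9% and 59.4% had a *Csf1* UMI. Shallower cells, left out, were 459 of 1489, 1442 of 3880, 565 of 1729 and 668 of 2159. With thinning to 1000 UMIs, which left out fewer cells, the shares were 54.5%, 58.4%, 36.6% and 40.7%. The mean of the 4 libraries in cluster 0 was 1040 ± 367 CPM (SD over libraries of different age and day), and the small unnamed clusters 14 and 13 came next with 649 ± 340 and 401 ± 135 CPM, with ranges that overlap their neighbor's. Both mixed neutrophil and lymphocyte RNA. Mean levels in cluster 14 were 30414 CPM for *S100a9* and 635 for the B cell marker *Ms4a1*. In cluster 13 they were 24936 CPM for *S100a9* and 565 for the T cell marker *Cd3d*. Which cells of these clusters held *Csf1* was not tested. The other neutrophil-like clusters were lower, with 292, 345, 32.4 and 137 CPM in cluster 3 and 350, 324, 70.8 and 172 CPM in cluster 6.

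Microglia-like cells also carried *Csf1*. In cluster 10 the CPM was 149, 186, 140 and 240, with the highest value in the middle-aged day 10 library. In cluster 8 it was 158, 180, 40.7 and 59.6, so that both day 10 values lay below both day 6 values. Monocyte/macrophage-like cluster 1 had 102, 118, 24.2 and 38.6 CPM. T cell-like cluster 2 had 15.8, 14.3, 37.2 and 41.0 CPM and was the reverse, with both day 10 values above both day 6 values. Cells holding 20 or more UMIs of *S100a8* and *S100a9*, or 2 or more UMIs of other lineages' markers, were then left out. *Csf1* stood at 47.7, 51.8, 20.6 and 22.7 CPM in cluster 8 and at 41.3, 71.4, 14.5 and 20.6 CPM in cluster 1. In cluster 10 it kept 120, 145, 133 and 216 CPM. In all cells of cluster 8, 55.6% to 81.6% of a library's *Csf1* UMIs lay in 10 cells. As a background, B cell-like cluster 4 had 6.72, 22.5, 4.78 and 17.8 CPM, from 6 to 21 UMIs per library. In thinned B cell-like cells a *Csf1* UMI was found in 0.365% to 3.82%, at median depths of 2402 to 2997 UMIs per cell, against 2193 to 2365 in cluster 0.

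The genes most like *Csf1* across the 16 clusters, by Pearson correlation of log2 CPM among 5119 genes, were *Tmem140* (r = 0.947), *Fnip1* (0.945) and *Pnpla7* (0.945), each also highest in cluster 0. These are descriptions over clusters that share 4 libraries.

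**Figure D1:**
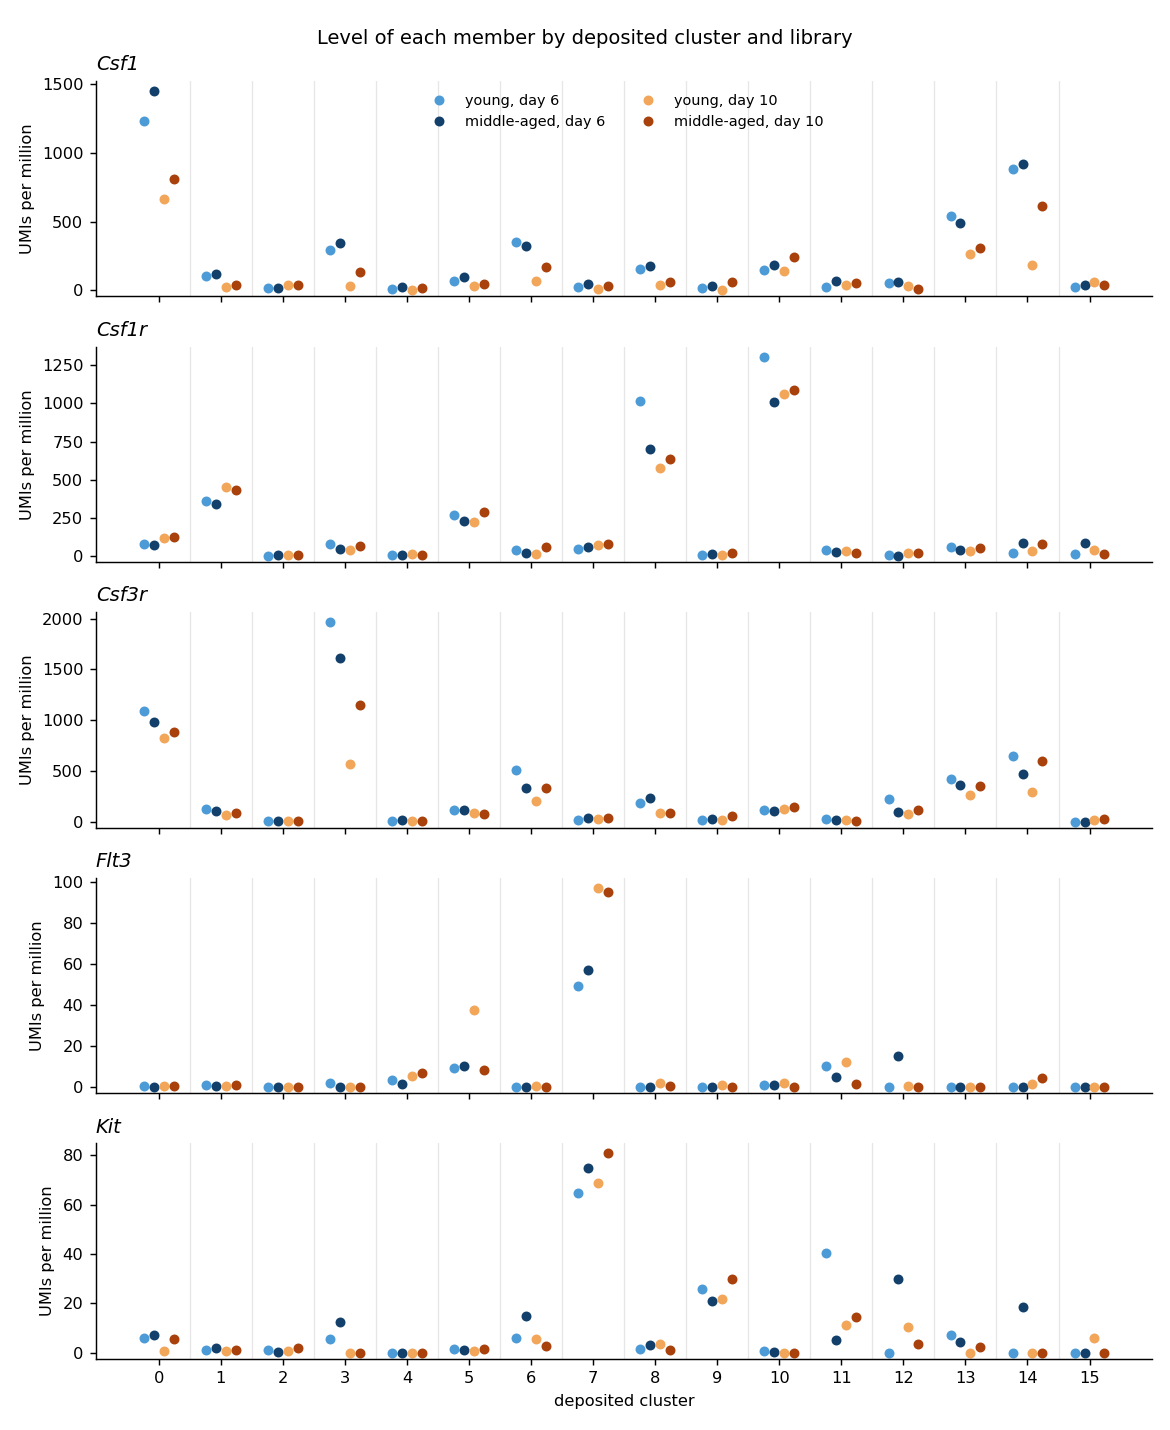
UMIs per 1000000 UMIs (vertical axes, linear) of 5 members in each of the 16 deposited clusters (horizontal axis), with 1 point per library, colored by age and day. *Csf1* stands highest in cluster 0, *Csf1r* in clusters 10 and 8, *Csf3r* in clusters 3 and 0, and *Flt3* and *Kit* in cluster 7.

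*Il34*, the second ligand of the *Csf1r* product and known from neurons and skin, had 0 UMIs in the 38057 cells, which allows a share of up to 0.00788% of cells with a UMI. Neurons lack CD45 and were not sorted. Among the other ligands of the system, *Csf3* (G-CSF) had 76 UMIs in all, too few to order the clusters. Its means were 1.22, 1.14 and 1.12 CPM in neutrophil-like clusters 0, 3 and 6. *Kitl*, the *Kit* ligand, was highest in microglia-like cluster 10 with 28.4 to 35.3 CPM, while *Flt3l*, the ligand of the *Flt3* product, had like means in NK cell-like cluster 9 (42.4 CPM) and T cell-like cluster 2 (41.6 CPM). On day 6 cluster 2 was higher than cluster 9 in young mice (47.4 against 33.1 CPM) and near equal in middle-aged mice (51.6 against 50.2 CPM, the latter from 19 UMIs). On day 10 it was lower than cluster 9 in young (37.4 against 43.6 CPM) and in middle-aged mice (30.2 against 42.7 CPM).

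*Csf1r* was highest in the microglia-like clusters. Cluster 10 had 1307, 1008, 1066 and 1087 CPM and cluster 8 had 1014, 700, 577 and 634 CPM. In each, the young day 6 library was the highest. Monocyte/macrophage-like cluster 1 followed with 363, 340, 455 and 434 CPM and, being large, held 56.8% of the 66790 *Csf1r* UMIs. Cluster 5 had 270, 227, 225 and 286 CPM. The ranges of clusters 10 and 8 overlapped, whereas those of clusters 8, 1, 5 and 0 did not overlap from one to the next. Cluster 0 still had 79.6, 71.9, 116 and 122 CPM, with a *Csf1r* UMI in 11.9% to 20.6% of thinned cells, against 0.471% to 1.12% in T cell-like cluster 2. *Ctsl* (r = 0.978), *Adgre1* (0.978) and *Cd68* (0.961) had the pattern most like *Csf1r*. They encode a lysosomal protease, the macrophage marker F4/80 and a lysosomal glycoprotein of macrophages.

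*Csf3r* was highest in neutrophil-like cluster 3, with 1964, 1609, 569 and 1152 CPM, where the young day 10 library was well below the others. Cluster 0 had 1087, 980, 827 and 883 CPM and held 52.6% of the 45702 *Csf3r* UMIs. Cluster 6 had 513, 331, 201 and 328 CPM. Microglia-like cells held *Csf3r* as well, with 116, 106, 124 and 147 CPM in cluster 10 and 187, 235, 83.8 and 86.1 CPM in cluster 8. In thinned cells of cluster 10 a *Csf3r* UMI was found in 17.5% to 20.6%, against 0.318% to 1.46% in B cell-like cells. Neutrophil transcripts were present in these microglia-like clusters too. The 8 neutrophil markers summed to 4168, 1319, 5363 and 3451 CPM in cluster 10 and to 7248, 10476, 8705 and 3635 CPM in cluster 8. With cells holding 20 or more UMIs of *S100a8* and *S100a9*, or 2 or more UMIs of other lineages' markers, left out, *Csf3r* stood at 85.7, 79.4, 113 and 115 CPM in cluster 10 and at 37.7, 81.8, 47.3 and 47.2 CPM in cluster 8. *Cxcl2* (r = 0.984), *Dmxl2* (0.975) and *Mirt2* (0.974) were the genes most like *Csf3r*.

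*Flt3* and *Kit* were both highest in dendritic cell-like cluster 7. *Flt3* had 49.2, 57.4, 97.4 and 95.4 CPM there and *Kit* had 64.9, 75.0, 68.6 and 80.8 CPM. Cluster 7 held 64.4% of the 1504 *Flt3* UMIs and 61.3% of the 1675 *Kit* UMIs. *Flt3* was higher in both day 10 libraries than in both day 6 libraries, whereas the *Kit* values of the days overlapped. Thinned to 2000 UMIs, 9.13%, 11.5%, 22.6% and 17.9% of its cells had a *Flt3* UMI and 11.7%, 12.9%, 13.7% and 14.7% a *Kit* UMI. Of 1408 thinned cells, 188 had *Flt3*, 181 had *Kit* and 30 had both. *Kit* was found in 15.96% of cells with *Flt3* and in 12.4% of cells without it.

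The cells holding each receptor within cluster 7 differed in their other dendritic cell genes. In the 543 cells with a *Flt3* UMI, *Ccr7* (a lymph node homing receptor) had 933 CPM against 500 in the 889 others, *Fscn1* (an actin bundler of mature dendritic cells) 532 against 225, and the plasmacytoid marker *Siglech* 113 against 38.1. In the 532 cells with a *Kit* UMI these genes went the other way, with *Ccr7* at 419 against 856 CPM, *Fscn1* at 174 against 473 and *Siglech* at 12.5 against 108. *Xcr1*, a marker of cross-presenting dendritic cells, was higher with either receptor, at 43.7 against 10.7 CPM for *Flt3* and at 37.9 against 13.3 for *Kit*. *Itgae*, an integrin of the same subset, was at 76.5 against 22.1 and 70.5 against 23.6 CPM. *Cd209a* was lower with either, at 235 against 324 CPM for *Flt3* and 204 against 352 for *Kit*. Cells with *Flt3* and without it had similar median depths (9624 and 9003 UMIs), and cells with *Kit* were deeper than those without (10497.5 and 8499.5). These are sums over cells of all 4 libraries, given without a test, and the genes named were picked from the marker lists after their values were seen. Across clusters, *Cd209a* (r = 0.934), *Clec10a* (0.886) and *Nostrin* (0.765) were most like *Flt3*. The most alike to *Kit* were weaker, with *Pfn1* at 0.796, *Prkd3* at 0.755 and *Emd* at 0.704.

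Both receptors were also found outside cluster 7. By the mean of the 4 libraries *Kit* followed in NK cell-like cluster 9 with 25.9, 21.1, 21.8 and 29.9 CPM from 8 to 25 UMIs per library, against 0 UMIs in the 4 libraries of B cell-like cluster 4. *Flt3* followed in monocyte/macrophage-like cluster 5 with 9.23, 10.5, 37.7 and 8.58 CPM, so that the young day 10 library stood alone. There, 28.6% of the cells had a *Flt3* UMI against 7.59% to 8.72% in the other 3 libraries, and thinned to 2000 UMIs the share was 8.80% against 1.17% to 2.03%. With cells holding other-lineage markers left out, cluster 5 had 11.3, 12.5, 70.4 and 23.9 CPM of *Flt3*. In that young day 10 library the 117 cells with *Flt3* had more *Vcan* (743 against 334 CPM), *Fn1* (3663 against 1898) and *Ccr2* (729 against 432) than the 292 without, and less *Arg1* (123 against 906), *Cd3d* (41.0 against 238) and *S100a9* (2199 against 8415). *Vcan*, *Fn1* and *Ccr2* belong to the monocyte/macrophage marker list, but so does *Arg1*, which went the other way. The other genes of that list are not given here. All genes named in this comparison were picked after their values were seen. Cluster 11 was led by the basophil genes *Prss34*, *Mcpt8* and *Cpa3*. It also held RNA of dividing cells (*Mki67* at a mean of 557 CPM, *Top2a* at 614) and of T cells (*Cd3d* at 574). *Kit* had 40.5, 5.13, 11.3 and 14.6 CPM in cluster 11 from 139 UMIs, a range that spans that of cluster 9. Its young day 6 value came from 50 UMIs in 10 of 97 cells, and which cells of the cluster held *Kit* was not tested. *Flt3* had 1.36 to 12.1 CPM there, from 66 UMIs, which overlaps cluster 5 and also the 1.61 to 6.79 CPM of B cell-like cluster 4.

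**Figure D2:**
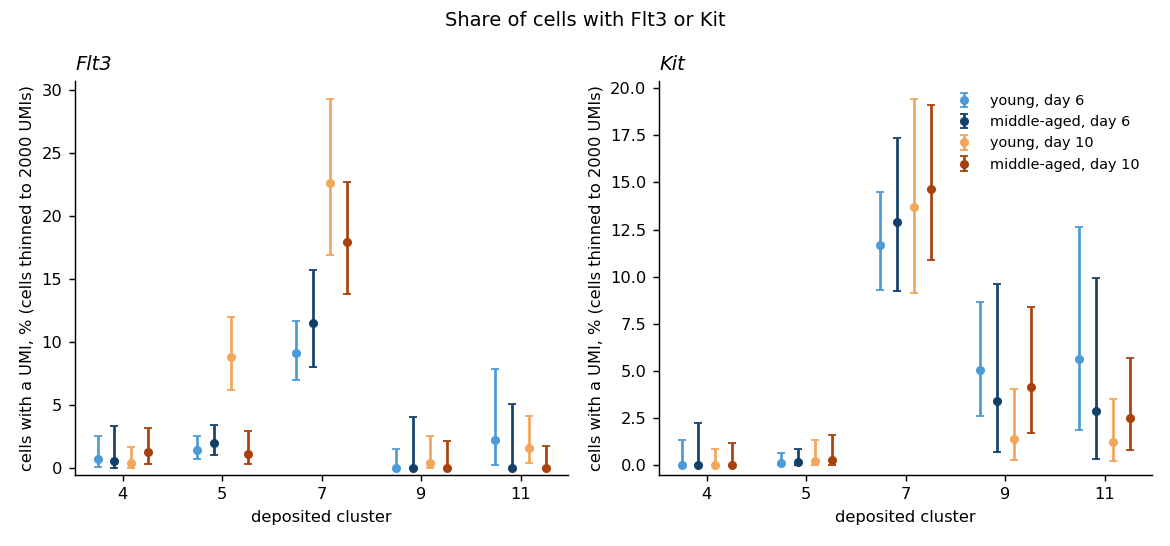
Percentage of cells with a UMI of *Flt3* (left) or *Kit* (right) after each cell was thinned to 2000 UMIs, in clusters 4, 5, 7, 9 and 11 (horizontal axis), 1 point per library with its exact binomial 95% interval. In cluster 7 the share with *Flt3* is 22.6% and 17.9% on day 10 against 9.13% and 11.5% on day 6, and in cluster 5 the young day 10 library stands alone at 8.80%.

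The comparison of day 10 with day 6 was fitted across all genes with edgeR's quasi-likelihood test, with age as a covariate, in clusters 0, 1, 2, 7, 8 and 10, and p-values were adjusted over all genes of a cluster. With 4 libraries it has 1 residual degree of freedom, which is the difference of the day effect between the ages. The test pools this error with a trend over the genes of a cluster. A p-value thus does not rest on the gene's own difference alone. With 1 library per age and day, no spread between mice or handling was measured. *Csf1* fell in 4 of the 6 clusters and rose in 1, and *Csf3r* fell in 3. In the same fits the members tested in a cluster numbered 3 to 5, since *Il34* was never tested and the rarer receptors did not reach 10 counts in 2 libraries everywhere.

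In neutrophil-like cluster 0, *Csf1* fell by 1.63 ± 0.13 on the log2 scale (SE; adjusted p = 1.4e-07), *Csf3r* fell by 1.03 ± 0.13 (adjusted p = 1.22e-05) and *Kit* fell by 1.81 ± 0.44 (adjusted p = 0.00316). The *Kit* call rests on 0.653 to 7.10 CPM, and without the middle-aged day 6 or the young day 10 library its adjusted p was 0.135 or 0.104. Fits that leave out a library hold 3 samples and no age term. *Csf1r* did not pass (−0.10 ± 0.13, adjusted p = 0.534). Thus 3 of 4 members tested were called where 54.4% of all genes were. The scaling matters in this cluster. By plain CPM the median gene was higher on day 10, by 0.58 in young and 0.68 in middle-aged mice, a shift that edgeR's TMM factors remove. On the CPM scale *Csf1* was lower by −0.90 [−0.96, −0.84] in young and −0.85 [−0.89, −0.80] in middle-aged mice, *Csf3r* by −0.39 and −0.15, and *Csf1r* was higher by 0.54 and 0.76.

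In monocyte/macrophage-like cluster 1, *Csf1* fell by 2.01 ± 0.20 (adjusted p = 8.44e-06) and *Csf3r* fell by 0.90 ± 0.20 (adjusted p = 0.00400), while *Csf1r* gave 0.17 ± 0.20 (adjusted p = 0.553). That is 2 of 5 members tested, beside 29.9% of all genes. The 8 neutrophil markers in this cluster summed to 4023, 2853, 4974 and 2000 CPM. The *Csf3r* call was lost without the young day 10 or the middle-aged day 10 library (adjusted p = 0.104 and 0.0602). Without cells that hold other-lineage markers the *Csf1* change was −1.83 (adjusted p = 0.000117) and that of *Csf3r* −0.49 (adjusted p = 0.0666).

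In microglia-like cluster 8, *Csf1* fell by 1.48 ± 0.21 (adjusted p = 4.59e-05) and *Csf3r* fell by 1.03 ± 0.20 (adjusted p = 0.00108), 2 of 3 members tested beside 13.4% of all genes. Neither call held without cells that carry other-lineage markers, where *Csf1* gave −0.88 (adjusted p = 0.0889) and *Csf3r* −0.03 (adjusted p = 0.972), and *Csf3r* then rested on 19 to 101 UMIs per library. In DESeq2 the *Csf3r* value of cluster 8 had an adjusted p of 0.0959. In microglia-like cluster 10 edgeR called 0 of 3 members, beside 6.64% of all genes, as did DESeq2, and 1 of them (*Csf3r*) had an unadjusted edgeR p under 0.05. *Csf1* gave 0.29 ± 0.21 (adjusted p = 0.488), *Csf3r* 0.44 ± 0.20 (adjusted p = 0.229) and *Csf1r* 0.06 ± 0.29 (adjusted p = 0.939). Without cells holding other-lineage markers *Csf3r* passed there, at 0.64 (adjusted p = 0.0377).

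In T cell-like cluster 2, *Csf1* rose by 1.48 ± 0.19 (adjusted p = 2.62e-05), 1 of 4 members tested beside 7.22% of all genes. The neutrophil markers of this cluster summed to 94.2, 242, 449 and 127 CPM, higher on day 10 in young and lower in middle-aged mice, and their part in the *Csf1* value was not tested. In dendritic cell-like cluster 7, *Flt3* rose by 0.79 ± 0.21 (adjusted p = 0.0245) and *Csf1* fell by 0.95 ± 0.25 (adjusted p = 0.0233), 2 of 5 members tested beside 6.48% of all genes. *Kit* gave 0.03 ± 0.20 (adjusted p = 0.967). *Flt3* was higher on day 10 in both ages, by a log2 ratio of 0.98 [0.71, 1.25] in young and 0.73 [0.45, 1.02] in middle-aged mice. Both calls of cluster 7 depend on single libraries. *Flt3* had an adjusted p of 0.538 without either day 10 library, and *Csf1* of 0.583 to 0.857 without the middle-aged day 6, young day 10 or middle-aged day 10 library. In DESeq2 neither call held, with adjusted p = 0.339 for *Flt3* and 0.433 for *Csf1*, and *Csf1* was also lost without cells holding other-lineage markers (−0.85, adjusted p = 0.122).

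**Figure D3:**
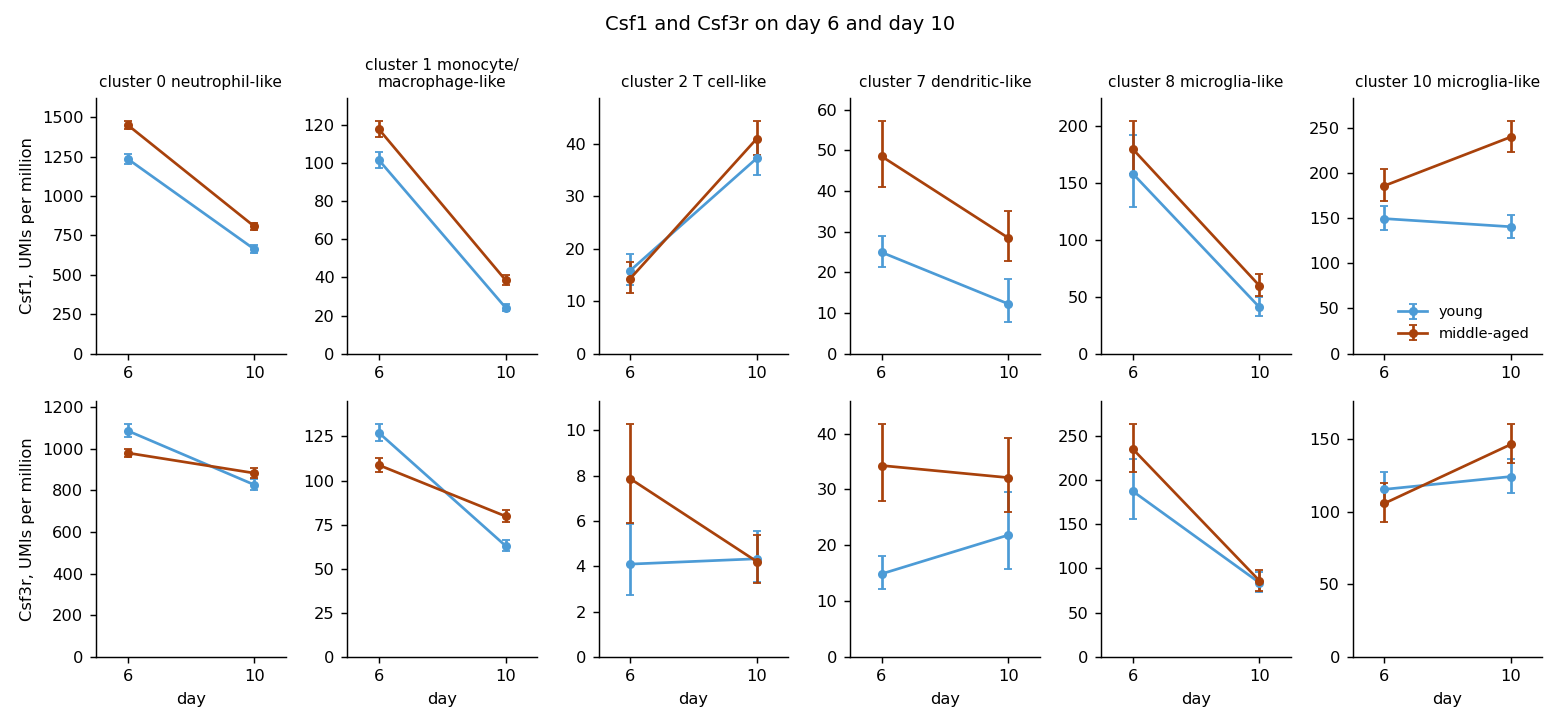
*Csf1* (top) and *Csf3r* (bottom) in UMIs per 1000000 UMIs on day 6 and day 10 in the 6 clusters tested, with 1 line per age and exact Poisson 95% intervals (counting error only). The vertical scale differs between panels and starts at 0. *Csf1* is lower on day 10 in clusters 0, 1, 7 and 8 and higher in cluster 2 at both ages.

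The other genes of the system were described from a list of 32. On day 10, 22 of 26 tested were called in cluster 0 (3 higher, 19 lower), where 54.4% of all genes were, and 14 of 28 in cluster 1 (2 higher, 12 lower), where 29.9% were. In cluster 8 it was 10 of 24 (6 higher, 4 lower) beside 13.4% of all genes. The counts were 4 of 26 in cluster 2 (3 higher, 1 lower), 3 of 25 in cluster 7 (2 higher, 1 lower) and 2 of 26 in cluster 10 (both higher), beside 7.22%, 6.48% and 6.64%. *Trem2*, a lipid receptor of microglia and macrophages, rose by 2.58 ± 0.21 in cluster 1 (adjusted p = 2.82e-06) and by 0.91 ± 0.18 in cluster 8 (adjusted p = 0.00135), at mean levels of 253 and 651 CPM. It was also called higher in clusters 0, 2 and 7, at mean levels of 9.41, 3.62 and 19.6 CPM, against 5.85 CPM in B cell-like cluster 4 as background. Cluster 2 lay below the background, so its call is not read as expression. Clusters 0 and 7 were far below the 253 CPM of cluster 1, and the part of RNA from other cells in their calls was not tested. *Socs3*, a feedback inhibitor of cytokine receptor signaling, fell in clusters 0, 1, 2 and 8, by 1.21 ± 0.13 in cluster 0 (adjusted p = 2.94e-06). *Csf2rb*, the shared receptor chain for GM-CSF, fell by 1.66 ± 0.15 in cluster 0 (adjusted p = 6.19e-07) and by 0.85 ± 0.20 in cluster 1 (adjusted p = 0.00648).

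The comparison of middle-aged with young recipients used the same fits with day as the covariate. No member was called in any of the 6 clusters, where 0.208% (cluster 0), 0.0982% (cluster 1), 0.0616% (cluster 2), 0.466% (cluster 7), 0.0956% (cluster 8) and 0.142% (cluster 10) of genes were called at all. Of the 24 tests of a member in a cluster, 6 had an unadjusted p under 0.05 in edgeR and 5 in DESeq2, which also called 0. Of the 32 other genes only *Irf8*, a transcription factor of monocyte and dendritic cell development, was called, and fell by 1.82 ± 0.33 in cluster 0 (edgeR adjusted p = 0.0479). Its mean level was 18.6 CPM in cluster 0, against 376 CPM in cluster 1 and 405 CPM in B cell-like cluster 4. The part of RNA from other cells in this call was not tested.

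*Csf1* came closest to a call. Its age estimate in edgeR was 1.099 ± 0.243 in cluster 7 (adjusted p = 0.0531), 0.57 ± 0.21 in cluster 10 (adjusted p = 0.999), 0.49 ± 0.19 in cluster 1 (adjusted p = 1.00), 0.31 ± 0.13 in cluster 0 (adjusted p = 0.541), 0.38 ± 0.21 in cluster 8 (adjusted p = 1.00) and 0.01 ± 0.18 in cluster 2 (adjusted p = 1.00). Cluster 7 passed in edgeR with no filter on low counts (1.09, adjusted p = 0.00278) and without cells holding other-lineage markers (1.32, adjusted p = 0.0184). In the cells then left, *Csf1* stood at 9.82, 30.7, 8.94 and 13.1 CPM, from 13 to 74 UMIs per library. In all cells of cluster 7, 58.4% to 69.8% of the *Csf1* UMIs of a library lay in 10 cells. By ratio of CPM on day 10, *Csf1* was higher in middle-aged mice in 12 of 12 clusters with 100 or more UMIs, with an interval above 0 in 10. On day 6 it was higher in 8 of 11, with an interval above 0 in 5, and no interval lay below 0. On day 10 *Csf3r* was higher in 10 of 12 clusters and *Csf1r* in 8 of 10. The share of all genes with such counts was not computed, so the *Csf1* counts are a description only. All clusters of a day come from the same 2 libraries, so they are not separate replicates of the *Csf1* difference. Clusters 13 and 14, which mix neutrophil and lymphocyte RNA, are among those counted.

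In cluster 10 the log2 ratio of *Csf1* was 0.31 [0.13, 0.50] on day 6 and 0.77 [0.61, 0.94] on day 10. In cluster 7 it was 0.96 [0.63, 1.29] and 1.22 [0.54, 1.95]. B cell-like cluster 4, which serves as the background, was also higher in middle-aged mice, by 15.8 CPM on day 6 and 13.04 CPM on day 10. The same difference was 23.6 and 16.2 CPM in cluster 7, 21.6 and 18.9 in cluster 8, 36.2 and 99.3 in cluster 10 and 215 and 145 in cluster 0. In cluster 1 it was 16.2 and 14.5 CPM, close to the B cell-like values, in cluster 9 it was 10.4 and 55.8, and in cluster 2 it was −1.54 and 3.73, below them. The part of free RNA in these differences was not tested.

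**Figure D4:**
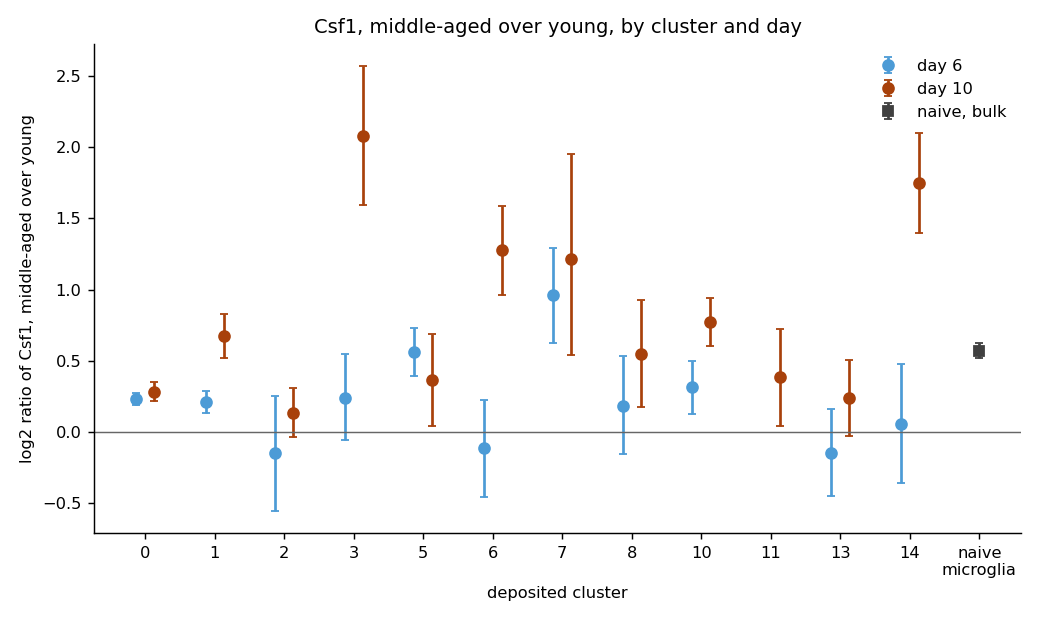
Log2 ratio of *Csf1*, middle-aged over young (vertical axis), for each cluster with 100 or more *Csf1* UMIs in both libraries together and for bulk naive microglia (last place), with exact 95% intervals for counting error. On day 10 all 12 clusters lie above 0, on day 6 8 of 11 do, and the bulk value is 0.57.

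*Csf1r* in cluster 10 was lower in middle-aged mice on day 6 (−0.38 [−0.45, −0.30]) and near equal on day 10 (0.03 [−0.04, 0.10]), and the estimate over both days was −0.14 ± 0.29 (edgeR adjusted p = 0.999). For *Csf3r* in cluster 3, which was not fitted, the ratio was −0.29 [−0.41, −0.16] on day 6 and 1.02 [0.88, 1.15] on day 10. The young day 10 library of cluster 3 also had a median of 4059.5 UMIs per cell, against 2161 to 2883 in the other 3. *Flt3* and *Kit* in cluster 7 had age ratios whose intervals span 0 on both days, from −0.03 to 0.22 for *Flt3* and from 0.21 to 0.24 for *Kit*.

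In naive microglia, with 1 bulk library per age and so no replicate check, all 6 members had counts. Counts per 1000000 counts (CPM) in young and middle-aged were 58.1 and 86.3 for *Csf1*, 1.93 and 0.341 for *Il34*, 11792 and 10707 for *Csf1r*, 462 and 560 for *Csf3r*, 1.52 and 1.18 for *Flt3* and 0.504 and 0.393 for *Kit*. Per kilobase of exon (RPKM), which allows levels to be compared between genes, *Csf1r* stood at 2042 and 1854, *Csf3r* at 128 and 155 and *Csf1* at 10.99 and 16.34. The remaining members were below 1. The microglial identity of these libraries was plain, since the 8 microglia markers summed to 23296 and 22012 CPM.

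*Csf1* was higher in middle-aged naive microglia by a log2 ratio of 0.57 [0.52, 0.63], from 4608 and 6585 counts. *Csf3r* was higher by 0.28 [0.26, 0.30] and *Csf1r* lower by −0.14 [−0.14, −0.14]. The 8 neutrophil markers summed to 88.9 and 100 CPM, and of the 7 with enough counts 3 were higher and 4 lower. Their part in the *Csf3r* value was not tested. *Il34* was lower by −2.50 [−3.16, −1.89], from 153 and 26 counts. Of the 5 members whose counts over both ages reached 100, *Il34* alone was lower by 2-fold or more, beside 6.92% of 14821 genes. *Flt3* gave −0.37 [−0.78, 0.04] and *Kit* −0.36 [−1.09, 0.36], with intervals that span 0. The 7 basophil or mast cell markers, cells known to carry *Kit*, summed to 15.8 and 3.91 CPM. Only 2 of them reached 100 counts, *Gata2* with 13.2 and 2.78 CPM and *Prss34* with 1.51 and 0.184 CPM. Of the rest, *Mcpt8* had 26 and 22 counts, *Ms4a2* 13 and 14, *Fcer1a* 4 and 8, *Cpa3* 8 and 4 and *Cd200r3* 40 and 24. The sum thus follows *Gata2* and does not show a fall shared by the list.

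The RNA of other cells moved beside *Il34*. The 5 endothelial markers were all lower in the middle-aged library, with a median log2 ratio of −2.14 and a sum of 336 and 95.1 CPM. The 3 neuron markers summed to 2.85 and 2.67 CPM, with 2 higher and 1 lower. The 8 monocyte/macrophage markers summed to 187 and 80.3 CPM, with 2 higher and 5 lower of the 7 with enough counts. That sum followed *Fn1*, which had 137 and 29.2 CPM. *Chil3* had 24.4 and 30.8 CPM and *Ccr2* 15.4 and 12.6 CPM, so the list as a whole did not fall by such an amount. The part of these cells in the values of *Il34* and *Sdc1* was not tested, and fewer cells of a type and less RNA per cell cannot be told apart in bulk RNA. Counting was unstranded, and *Il34* (GRCm38, chr8:110741829-110805924, minus strand) overlaps the antisense genes *Gm15894* and *Gm15895*, as *Flt3* overlaps *Gm26597* and *Csf1r* overlaps *Hmgxb3*, so that reads of such pairs cannot be separated where they share sequence. *Csf1*, *Csf3r* and *Kit* overlap no annotated gene. Of the rest of the system, *Socs3* (0.62 [0.59, 0.64]) and *Cebpb* (0.53 [0.48, 0.58]), a transcription factor of myeloid cells, were higher in middle-aged microglia, and *Sdc1*, whose product is a cell surface proteoglycan that binds IL-34, was lower (−2.61 [−3.27, −2.01]). In the single cells *Sdc1* was highest in monocyte/macrophage-like cluster 1, at a mean of 26.6 CPM.

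**Figure D5:**
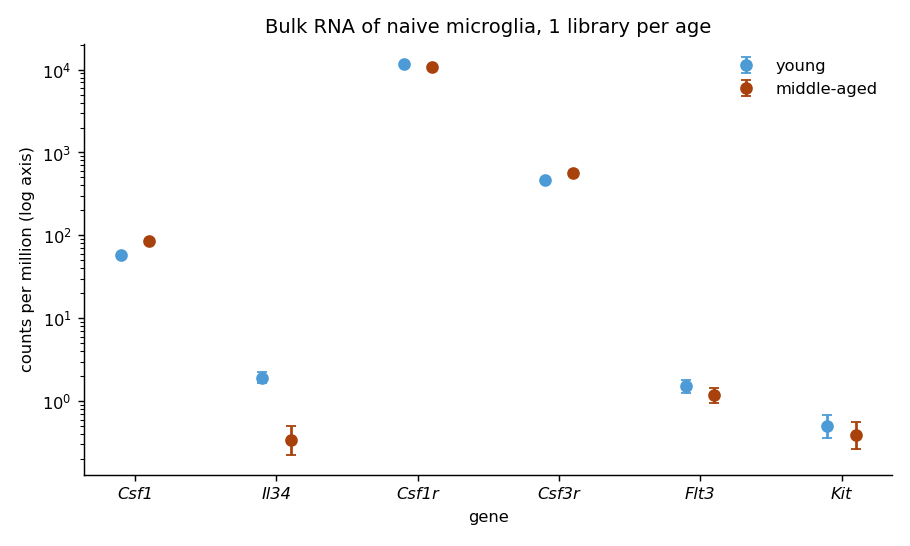
Counts per 1000000 counts (log axis) of the 6 members in bulk RNA of naive microglia, 1 library per age, with exact Poisson 95% intervals, which are smaller than the points for the abundant genes. *Csf1r* is the highest at 11792 and 10707 CPM, and the middle-aged library holds less *Il34* (0.341 CPM) than the young one (1.93 CPM).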

How the data were processed

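The authors counted the single-cell libraries (10x Genomics v3) with CellRanger v3.1.0 on mm10 (GENCODE vM23), filtered and clustered them in Seurat, and deposited raw UMI counts per gene and cell with a cluster number per cell. For the bulk libraries the authors trimmed reads with fastp, aligned them with HISAT2 and deposited raw read counts from featureCounts in the unstranded mode. Neither table was normalized. No doublet caller was run here.

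UMI counts were summed per cluster and library and divided by their total. Clusters 0, 1, 2, 7, 8 and 10 were fitted in R 4.3.3 with edgeR 4.0.16 (quasi-likelihood test, TMM factors, genes with 10 or more counts in 2 or more libraries, terms for age and day) with Benjamini-Hochberg adjustment over all genes of the cluster and a threshold of 0.05. Each age and day has 1 library, so the fit has 1 residual degree of freedom, the difference of the age effect between days. The quasi-likelihood test moderates that difference with a trend shared by the genes of a cluster. The p-values are set against this pooled error and not against a gene's own difference alone. No spread between mice enters it. DESeq2 1.42.0 was an alternative. In the table of bulk counts 2-fold changes were counted among genes with 100 or more counts. Ratios and intervals were computed with scipy 1.17.1. For shares of cells, each cell was thinned to 2000 UMIs and shallower cells were left out. The fit and intervals were tested on simulated data. Genes most like a member were the 3 with the highest Pearson correlation of log2(CPM + 1) over clusters, among genes at 50 CPM or more in a cluster, for members with 500 or more UMIs. The members, the gene lists and the marker lists were chosen with earlier results of these data known. The alternatives changed scaling, filter, tool, covariate, cells and libraries. The comparison of *Flt3*-holding cells within the young day 10 library was added after seeing the data.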

Additional observations from a re-analysis of the deposited data

Results flagged for a closer look

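These age or day differences have opposite directions in the 2 strata of the other factor, with both counting intervals clear of 0. Each stratum has 1 library per side, so the difference between strata was not tested. All values are log2 ratios of CPM.

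*Csf1r* in monocyte/macrophage-like cluster 5 was lower in middle-aged mice on day 6 (−0.25) and higher on day 10 (0.35). By day, it was lower on day 10 in young mice (−0.27) and higher in middle-aged mice (0.33). In microglia-like cluster 8 its age ratio was −0.53 on day 6 and 0.14 on day 10, and in microglia-like cluster 10 its day ratio was −0.30 in young and 0.11 in middle-aged mice.

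*Csf3r* was lower in middle-aged mice on day 6 and higher on day 10 in 4 clusters. The ratios were −0.15 and 0.095 in cluster 0, −0.22 and 0.34 in cluster 1, −0.29 and 1.02 in cluster 3 and −0.63 and 0.71 in cluster 6. These clusters share the same libraries on each day.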

How the results depend on the processing

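No paired analysis was possible because each group has 1 library. With 1 residual degree of freedom, and 1 library per age and day, mice, handling and sequencing cannot be told apart from age or day. Rare receptors are limited by depth, since *Flt3* and *Kit* rest on few UMIs outside cluster 7. The fits of *Csf1* on day in clusters 0, 1 and 2 and of *Csf3r* on day in cluster 0 kept their direction and their call under every alternative run. For cluster 0 these runs leave the scaling untested. Each kept the median gene near no change, from 0.015 (RLE size factors) to 0.15 (no filter). Plain CPM put that gene at 0.58 (young) and 0.68 (middle-aged). On that scale both members kept their direction with smaller falls, *Csf1* at −0.90 and −0.85 and *Csf3r* at −0.39 and −0.15. Their calls were not tested on it. The cause of the changes below was not tested, except that leaving out a library leaves 3 samples and no room for the covariate. Those fits have 1 term, assume that the lone sample varies like the others, and mix age with day in part.

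The number of genes called for age in clusters 0, 1, 2, 7, 8 and 10 was 20, 12, 7, 46, 8 and 15. With RLE size factors it was 35 in cluster 0, 4 in cluster 1 and 16 in cluster 2. With no filter it was 181, 3, 34, 262, 41 and 53 in these 6 clusters, and with no covariate it was 0 in each. DESeq2 gave 5 in cluster 0, 3 in cluster 7, 2 in cluster 8 and 5 in cluster 10. Without cells holding other-lineage markers it was 58 in cluster 0, 4 in cluster 1, 21 in cluster 2, 211 in cluster 7 and 0 in cluster 8. Leaving out 1 library gave 0 to 3 in cluster 0, 0 in clusters 1, 2 and 8, 0 to 7 in cluster 7 and 0 to 1 in cluster 10.

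The number called for day was 5218, 3654, 820, 639, 1122 and 701. DESeq2 gave 2964, 1916, 379, 253, 244 and 138. No covariate gave 229 in cluster 7, no filter gave 1201 in cluster 10, and leaving out cells with other-lineage markers gave 604 in cluster 8 and 1117 in cluster 10. Leaving out 1 library gave 3321 to 5183 in cluster 0, 565 to 4910 in cluster 1, 279 to 1925 in cluster 2, 0 to 1414 in cluster 7, 699 to 1438 in cluster 8 and 194 to 1944 in cluster 10. The 0 in cluster 7 came without either day 10 library.

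The age estimate of *Csf1* changed sign without the middle-aged day 6 library (−0.73 in cluster 0, −0.80 in cluster 1 and −0.44 in cluster 8) and without the young day 10 library (−0.28, −0.31 and −0.30), with edgeR adjusted p of 0.999 to 1.00, and it was 1.37, 1.86 and 1.36 without the young day 6 library, in fits where day is not held fixed. The day estimate of *Csf1* in cluster 10, which was not called, ranged from −0.10 without the middle-aged day 10 library to 0.66 without the young day 10 library. The day ratio of *Csf3r* in young mice in cluster 8 was 0.33 without cells holding other-lineage markers and 0.038 by the mean of log-normalized values. In naive microglia, with no minimum count, 5066 genes were 2-fold lower and 4160 higher, against 1026 and 172. The *Csf1r* ratio was −0.14 with mitochondrial genes, ribosomal protein genes and *Gm26917* left out of the total.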
